A study of Mus musculus with 2 samples.

Results

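The cytosolic ribosomal protein genes were followed here through islet single-cell libraries from mice fed with and without a high-fat diet. Members were taken by name from the deposited gene list, as symbols beginning with Rpl or Rps. Mitochondrial ribosomal proteins, kinases and processed copies named "-ps" were left out. A member needed at least 50 unique molecular identifiers (UMIs, each counting 1 captured RNA molecule) over both libraries. Of 86 such symbols, 83 were kept out of 31053 genes in the tables, 19933 of which had a UMI. By name, 49 members belonged to the large 60S subunit and 33 to the small 40S subunit, and 1, Rps19bp1, encodes a protein that binds a subunit protein without being one. The members just inside the minimum were Rps27rt with 1122 UMIs, Rps19bp1 with 3561 and Rpl7l1 with 4595. Those just outside were Rpl39l with 4 UMIs and Rpl10l and Rpl3l with 0, where a count of 0 allows up to 0.041 UMIs per 1000000 non-insulin UMIs (CPM, the scale used for single genes throughout).

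Both libraries were 10x Genomics 3′ libraries (chemistry v3) of dissociated islets from male C57/B6 mice aged 16 weeks, each made from the pooled islets of 4 mice after removal of dead cells with a kit. In the HFD library the mice had been given food with 60% of its calories as fat from the age of 6 weeks on, 10 weeks in all, and for the WT library the labels name no diet, while the study's methods give standard chow for mice not on the HFD. There was 1 library per group, so diet, pool, dissociation and run cannot be told apart, no test between groups was possible, and all intervals printed here are exact 95% intervals that cover counting error only. After filters 2493 WT and 6673 HFD cells remained, and β-like cells carried a median of 29051 UMIs in WT and 11855 in HFD.

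Ribosomal proteins fold around ribosomal RNA to build the 2 subunits that translate messenger RNA. The small subunit reads the message, and the large subunit joins amino acids and holds the tunnel through which the new chain leaves. In mammals most of these messages share a run of pyrimidines at their 5′ end, the TOP element, through which mTOR signalling regulates their translation. In the β cell, much of the translated message is preproinsulin, and the machinery that makes it is known to be regulated by glucose.

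Because the TOP element is what is best known of the shared sequence of these genes, the start region is shown for those members with the most UMIs or with the highest or lowest β-like ratios in which a pyrimidine run was found. RefSeq promoter sequences on build GRCm38.p6 covered 63 of the 83 members (75.9%), too few for a comparison with other genes to hold. A C at the annotated start followed by pyrimidines, a run of at least 5 bases, was present in 14 of the 63 (22.2%) and in 813 of all 27025 genes with a promoter in the table (3.01%). When the run could begin within 5 bases of the start on either side, the counts were 30 (47.6%) and 5718 (21.2%). Both counts are matches of letters on the gene's strand and not measured start sites. Of the 21 members picked by UMIs or ratio, 17 had a promoter in the table and 7 had such a run. A gene with several promoters counted if any of them had the run, and its window shows the promoter with the longest run. Among the windows this applies to Rps24, Rps27l and Rpl19, with 2 promoters each. The windows run from 15 bases before the annotated start to 15 after it, 5′ to 3′ on the strand of the gene, and the capitals mark the pyrimidine run that begins with C:
Rps6 (chr4:86857353-86857382, minus strand): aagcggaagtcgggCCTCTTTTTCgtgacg
Rps24 (chr14:24490663-24490692, plus strand): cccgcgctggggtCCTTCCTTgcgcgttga
Rps2 (chr17:24720048-24720077, plus strand): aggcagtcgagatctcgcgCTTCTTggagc
Rps27l (chr9:66946071-66946100, plus strand): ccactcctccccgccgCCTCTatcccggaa
Rpl19 (chr11:98026695-98026724, plus strand): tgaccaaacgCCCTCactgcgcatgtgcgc
Rpl7a (chr2:26910792-26910821, plus strand): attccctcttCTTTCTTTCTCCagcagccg
Rpl13a (chr7:45128731-45128760, minus strand): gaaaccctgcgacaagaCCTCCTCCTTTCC
Counted from a C within 5 bases of the start, the runs measured 14 bases in Rpl13a, where the last base lies past the window, 12 in Rpl7a, where more pyrimidines precede the marked stretch, 10 in Rps6, 8 in Rps24, 6 in Rps2 and 5 each in Rps27l and Rpl19.

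To ask how much of each islet cell type's RNA came from these genes, UMIs were summed per cell class and library. A class was named from markers, and the suffix "-like" marks that. In β-like cells all 12 listed markers were found in at least 25% of cells in both libraries, and in α-like cells 10 of 10 in WT and 9 in HFD. The δ-like cells showed 7 and 5 of 9 markers, the γ-like cells 3 of 7 in both. In the endothelial-like, fibroblast-like, macrophage-like, ductal-like and acinar-like cells at least 7 of the 10 or 11 listed markers were found.

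All shares below are percentages of the non-insulin UMIs of a class, that is, of all UMIs except those of Ins1 and Ins2. In β-like cells the members held 8.81% of these UMIs in WT (1813 cells, interval 8.80 to 8.82) and 9.99% in HFD (5685 cells, 9.98 to 10.0). The HFD share of the α-like cells was 12.3% (177 cells, 12.2 to 12.4) against 10.5% in WT (50 cells, 10.4 to 10.6). In the δ-like cells it was 10.1% (84 cells, 10.0 to 10.3) against 9.06% (42 cells, 8.96 to 9.16). All 3 of these hormone-producing classes therefore had the higher share in HFD, and so did the small γ-like class with 7.96% in 32 cells against 6.33% in 18.

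In the non-endocrine classes given here the difference was smaller as a ratio of HFD to WT, or ran the other way. In percentage points, however, the macrophage-like and fibroblast-like differences were about as large as that of the β-like cells. Endothelial-like cells were at 10.5% in WT (170 cells) and 10.9% in HFD (154 cells), and macrophage-like cells at 16.5% (40 cells) and 17.7% (45 cells). Fibroblast-like cells were at 16.2% (59 cells) and 17.4% (23 cells). Ductal-like cells were lower in HFD, at 13.3% (32 cells) against 13.7% in WT (57 cells), and the acinar-like cells, 10 in WT and 4 in HFD, were at 4.86% and 4.17%.

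On the log2 scale the HFD-to-WT ratio of the share was 0.18 in β-like cells (0.18 to 0.18), 0.23 in α-like (0.21 to 0.24), 0.16 in δ-like (0.14 to 0.19) and 0.05 in endothelial-like cells (0.04 to 0.07). It was 0.10 in macrophage-like cells (0.07 to 0.13) and -0.035 in ductal-like cells, and these 2 directions flipped with TMM scaling, to -0.067 and 0.033. The direction did not flip in β-like, α-like, δ-like or endothelial-like cells under any scaling tried, though it did in single depth bins given below. None of the differences between classes could be tested over animals.

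**Figure D1:**
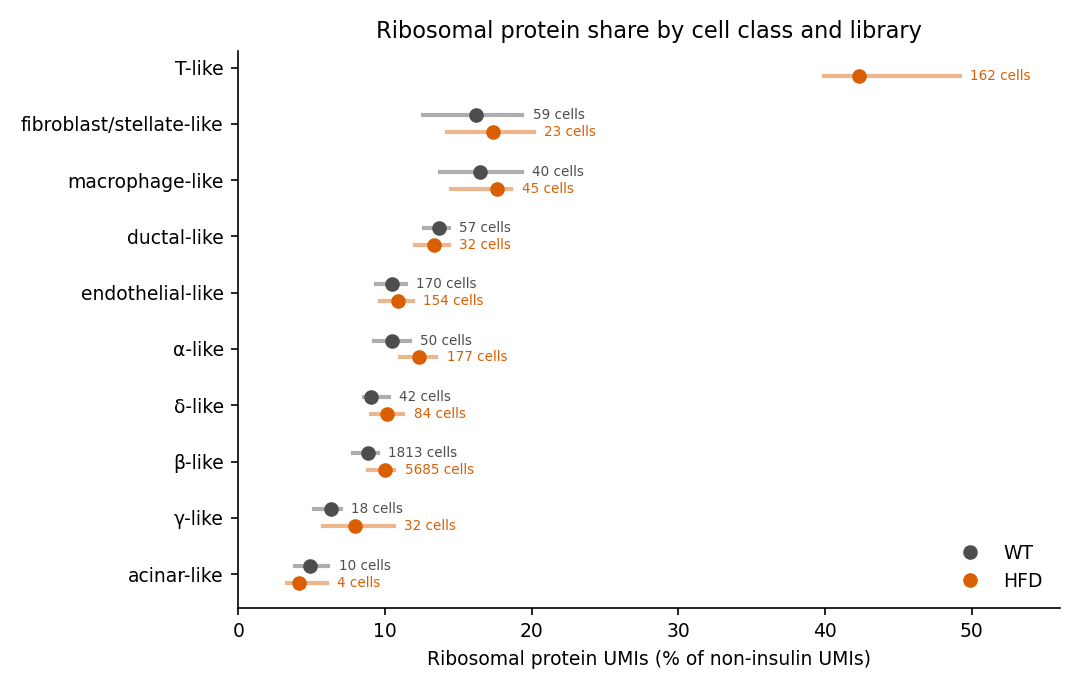
Share of non-insulin UMIs held by the 83 members (x axis, percent) in each cell class (y axis), WT in grey and HFD in orange, with points for the share over the summed cells and bars from the 25th to the 75th percentile of single cells. β-like cells sat at 8.81% and 9.99%, α-like at 10.5% and 12.3% and T-like cells of HFD at 42.3%, while ductal-like cells ran the other way at 13.7% and 13.3%, a direction that flipped under TMM scaling, as did that of the macrophage-like cells.

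The spread between single cells was wider than the difference between libraries. Among β-like cells the middle 50% lay between 7.82% and 9.51% in WT around a median of 8.65%, and between 8.82% and 10.6% in HFD around 9.70%. The standard deviation over cells was 1.37 percentage points in WT and 1.56 in HFD, where counting alone gives 0.33 and 0.44. Cells of 1 library are not replicates, and these ranges describe the cells only.

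Among the classes named so far, the order was acinar-like, γ-like, β-like, δ-like, then endothelial-like and α-like, ductal-like, and last fibroblast-like and macrophage-like cells, in both libraries. In WT the intervals of the endothelial-like and α-like shares overlapped, as did those of fibroblast-like and macrophage-like cells, and in HFD those of the latter pair. Set against β-like cells of the same library, the share was 1.87 times as large in macrophage-like cells of WT and 1.77 times in HFD, 1.55 and 1.34 times in ductal-like cells, and 1.19 and 1.23 times in α-like cells. Removing the other islet hormones from the denominator changed that order. The share then came to 9.97% in WT and 11.9% in HFD in β-like cells, 12.4% and 13.9% in δ-like, 13.6% and 17.4% in γ-like, and 16.5% and 20.1% in α-like cells, so that the endothelial-like share was 1.05 times the β-like share in WT and 0.918 times in HFD.

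T-like cells, found almost only in HFD (162 cells against 1), had the highest share of the named classes. The members held 42.3% of their non-insulin UMIs (42.1 to 42.5), which was 4.23 times the β-like share of the same library (4.21 to 4.26). The median over these cells was 45.8%, and their median depth was 1562 UMIs. The HFD cells held 8 of 10 T cell markers and the WT cell 2, so the latter is not described.

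Other quantities moved with the library in β-like cells. Mitochondrially encoded transcripts took 10.3% of non-insulin UMIs in WT and 8.20% in HFD, a log2 ratio of -0.33, and the same share went from 4.02% to 3.16% in α-like and from 7.23% to 4.81% in δ-like cells. A list of 5 nuclear or damage-associated transcripts took 1.32% and 1.26% in β-like cells. Insulin UMIs made up 0.4% to 3.2% of all UMIs in the non-endocrine classes. The part of depth, mitochondrial RNA and free RNA in the difference between the libraries was not tested beyond the depth bins and clusters below.

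For the single members, a gene was called higher or lower in HFD where its CPM was at least 25% higher or at least 20% lower in HFD and the exact interval of the ratio left out 1, among genes with at least 100 UMIs in the class. In β-like cells 6 of 83 members were called higher (7.23%) and 0 lower, where 4.34% of all 11282 genes tested were called higher and 22.2% lower (3.47% and 17.1% of the 6522 genes with at least 1000 UMIs). The log2 ratio was positive for 77 members and negative for 6, with a median of 0.17 against -0.14 over all genes tested. Relative to that shift of all genes the members' median stood 0.31 higher, and after centring on the median of all genes 39 members were called higher, with a background of 9.67% higher and 10.7% lower. Most members thus lay within the 25% limit but on the higher side in HFD, while the median gene was lower. The interval lay above 0 for 72 members and below 0 for 3. This was not counted over all genes, and the narrow intervals of well-counted genes leave out 0 even at small ratios. Other settings changed how many members passed. At 1.5-fold 0 were called higher (1.99% of all genes higher, 6.8% lower), with TMM scaling 42 (10.2% and 10.1%), with median-of-ratios scaling 44 (10.3% and 9.99%) and per all UMIs, insulin included, 39 (9.57% and 10.8%). In cells of at most 15000 UMIs 14 were called higher and 2 lower (5.5% and 11.4%), in cells of 5000 to 20000 non-insulin UMIs 26 higher (4.56% and 28.1%), and with the other islet hormones left out of the denominator 19 higher (6.43% and 15.2%). Apart from the 1.5-fold limit, the share of members called higher was above that of all genes at each of these settings. Large-subunit members had a median of 0.15 and small-subunit members 0.22.

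**Figure D2:**
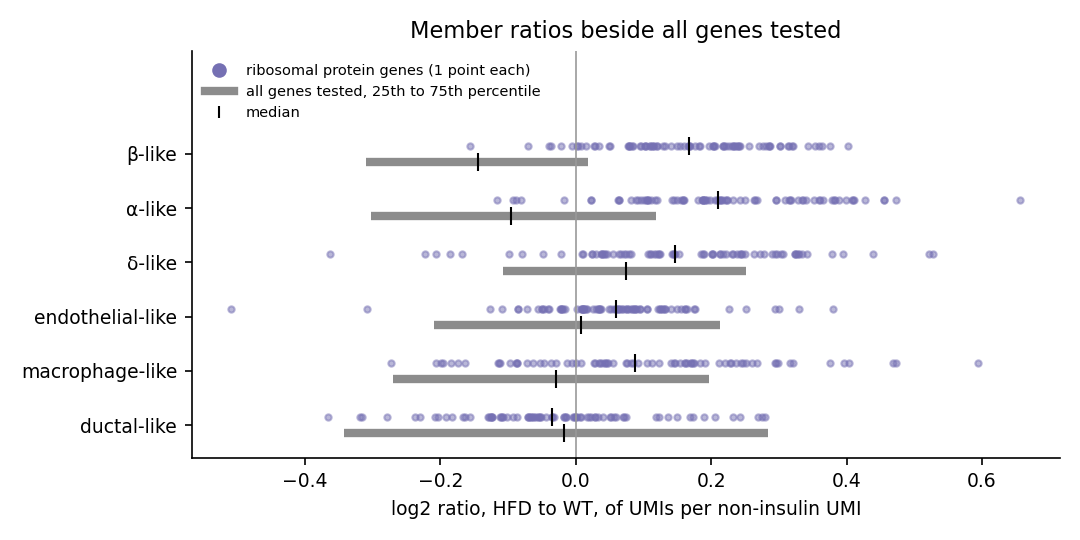
Log2 ratios of HFD to WT, from CPM values, by cell class, with 1 point per member, grey bars from the 25th to the 75th percentile of all genes tested, and ticks at the medians. In β-like cells the members' median was 0.17 against -0.14 for all 11282 genes, and in ductal-like cells the members' median of -0.035 lay beside -0.02 for all genes, with the sign of the ductal-like and macrophage-like share changing under TMM scaling.

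Of the members called higher in β-like cells, 5 are described here. Rpl23, a 60S protein at the face where the subunits meet that also binds Mdm2, stood at 1291 CPM in WT and 1706 in HFD, a log2 ratio of 0.40 (0.38 to 0.42). It lies at chr11:97777527-97782437 (GRCm38, minus strand). Rpl37, another large-subunit protein known to bind Mdm2 (chr15:5116645-5119140, plus strand), went from 934 to 1212 CPM, 0.38 (0.35 to 0.40). Rpl7, a large-subunit protein (chr1:16101295-16104662, minus strand), was at 795 and 1019 CPM, a log2 ratio of 0.36. The similar ratios of these large-subunit genes follow from the limit that picked them. Large-subunit members as a whole ran from -0.16 for Rpl27 to 0.40 for Rpl23.

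On the small subunit, Rps29, which carries a zinc-binding site (chr12:69157722-69159186, minus strand), was at 986 CPM in WT and 1269 in HFD, a log2 ratio of 0.36. Rps27l, the paralog of Rps27 known as a p53 target (chr9:66946086-66949516, plus strand), was at 330 and 419 CPM, 0.34. The window of Rps27l is among those printed above, with a run that begins 1 base past the annotated start. Just below the 25% limit were Rps4x, the X-linked copy of a small-subunit protein, at 1370 and 1710 CPM, and Rps12 at 875 and 1092 CPM, both with a log2 ratio of 0.32.

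**Figure D3:**
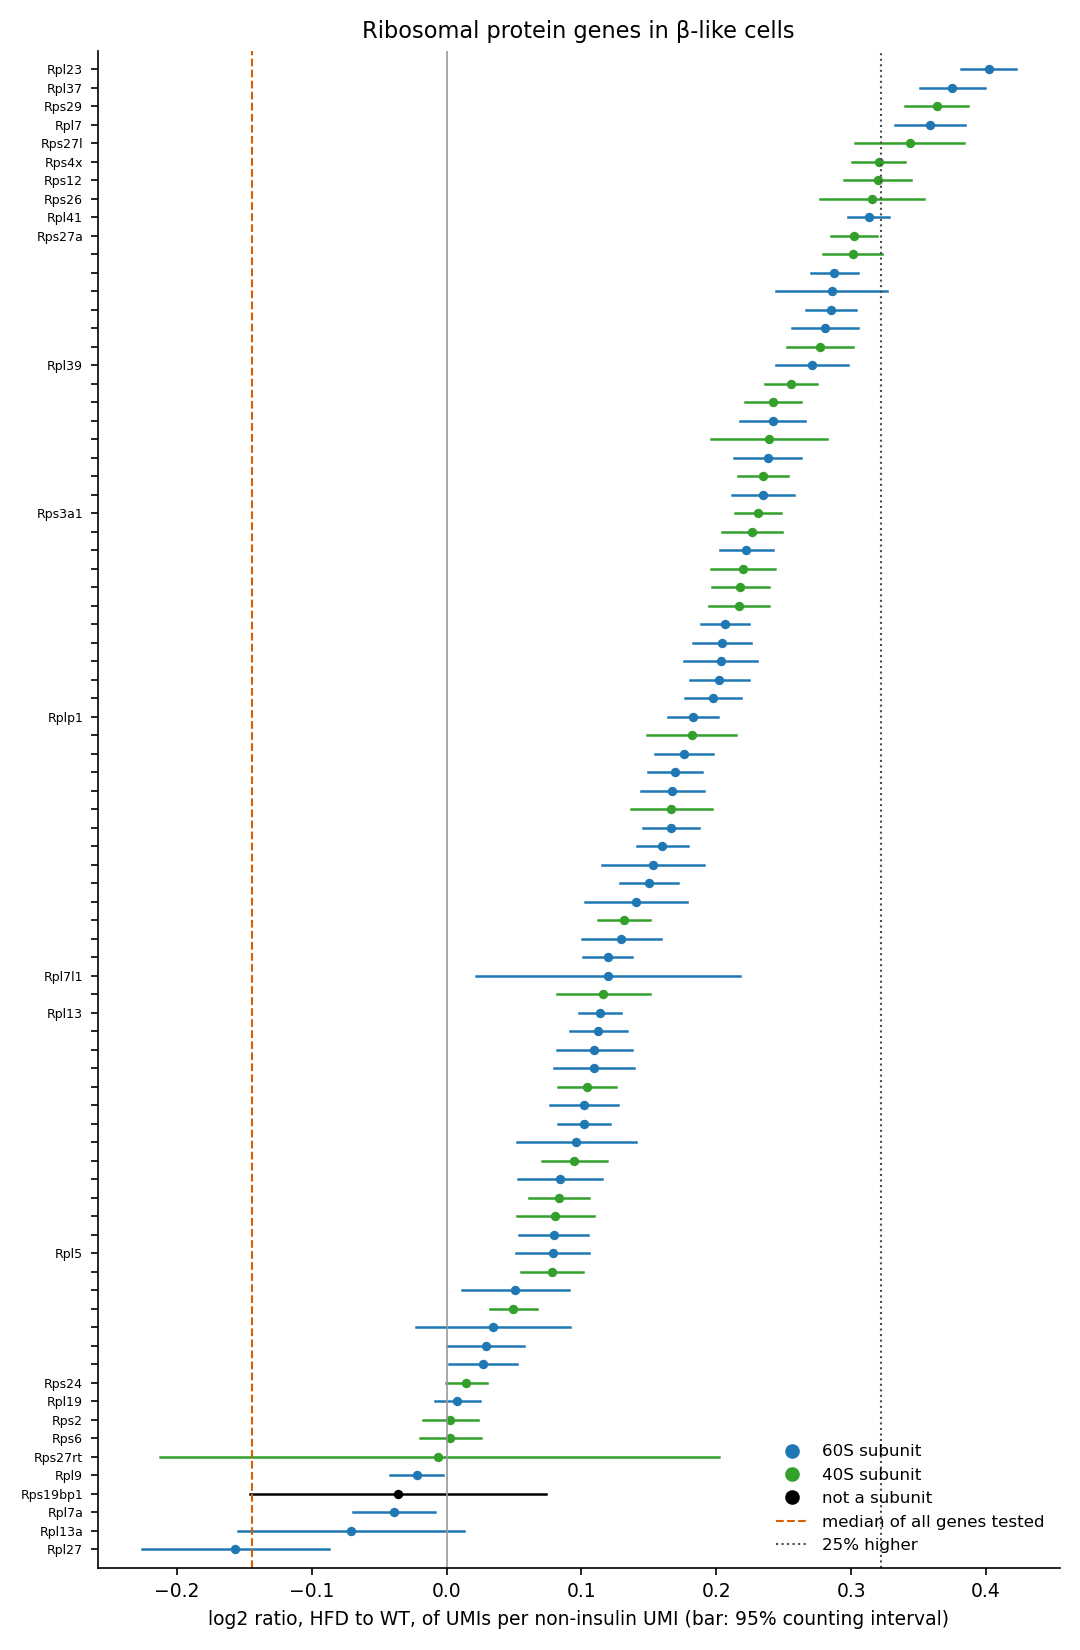
Log2 ratio of HFD to WT in β-like cells for 81 of the 83 members, ordered by ratio, with labels for members picked by ratio, UMIs or makeup, with exact 95% intervals, from CPM values, blue for 60S and green for 40S names, with a dashed line at the median of all genes and a dotted line at 25% higher. The ratios ran from -0.16 for Rpl27 to 0.40 for Rpl23, and those past the dotted line were called higher.

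At the other end, Rpl27, a large-subunit protein (chr11:101442298-101445529, plus strand), was at 131 CPM in WT and 117 in HFD, a log2 ratio of -0.16 (-0.23 to -0.09). Rpl7a, a large-subunit protein of the 5′ pyrimidine windows, stood at 663 and 645 CPM, -0.04 (-0.07 to -0.01), and Rpl9, near the base of the stalk, at 1546 and 1523 CPM, -0.02 (-0.04 to -0.00). These were the 3 members whose interval lay below 0, none past the limit. Rpl13a, which can leave the ribosome to silence inflammatory messages, stood at 87.7 and 83.5 CPM (-0.07, -0.15 to 0.01). Ribosomal protein genes have many near-identical processed copies in the genome, and because the counting software drops reads that match several genes, the levels of members with such copies are uncertain.

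Among the best-captured members there was no common ratio. The members with the most UMIs were Rpl13 with 197890, Rpl41 with 192148, Rps24 with 192041, Rps27a with 165635 and Rps3a1 with 161278, of 7263321 for all members. In β-like cells Rpl41, which encodes the shortest peptide of the ribosome, was at 2398 CPM in WT and 2979 in HFD (log2 ratio 0.31). Rps24, a small-subunit protein mutated in Diamond-Blackfan anaemia, was at 2478 and 2503 CPM (0.01). Rpl13 of the large subunit lay between them with 2407 and 2604 (0.11).

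Another 3 well-captured members differed by 0.01 or less on the log2 scale. Rps6, the small-subunit protein phosphorylated by S6 kinase downstream of mTOR, stood at 1176 CPM in WT and 1178 in HFD. Rps2, near the entry of the messenger RNA channel, was at 1459 and 1462, and Rpl19, which forms a bridge between the subunits, at 2102 and 2114. The pyrimidine windows of all 3 are among those printed above, as is that of Rps24.

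The members were next grouped by what they do on the ribosome. Rplp0, Rplp1 and Rplp2 form the stalk that recruits translation factors, and in β-like cells their log2 ratios were 0.29 (1861 and 2272 CPM), 0.18 (1657 and 1881) and 0.13 (675 and 738). Rpl5 and Rpl11, which with 5S ribosomal RNA hold Mdm2 when ribosome assembly is disturbed, were at 0.08 (802 and 847 CPM) and 0.10 (1600 and 1717). Rps27a, made as a fusion with ubiquitin, was at 0.30 (1931 and 2381 CPM). Fau, a fusion with a ubiquitin-like protein that yields a small-subunit protein and whose symbol keeps it out of the members, was at 1430 and 1612 (0.17, 0.15 to 0.19). None of these stalk, 5S and fusion genes passed the 25% limit.

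Paralogs and other members outside the canonical set varied more in level than in ratio. Rpl22l1, the paralog of Rpl22, was at 664 CPM in WT β-like cells and 717 in HFD (0.11). Rpl36al, the paralog of Rpl36a, was at 183 and 188 (0.03, -0.02 to 0.09), and Rpl7l1, which takes part in assembly of the large subunit, at 61.1 and 66.4 (0.12, 0.02 to 0.22). Rps27rt was at 14.4 and 14.3 CPM and Rps19bp1 at 50.8 and 49.5. With Rps27l, then, 1 of these 6 was called higher in β-like cells.

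In α-like cells 21 of 80 members tested (26.3%) were called higher and 0 lower, beside 5.22% higher and 14.9% lower among all 1265 genes tested. Among the 123 genes with at least 1000 UMIs in α-like cells, 20.3% were called higher and 10.6% lower. Most of these 123 genes are members themselves, so they are not a background apart from the family. The members' median log2 ratio was 0.21, that of all genes -0.10 and that of the 123 well-counted genes 0.16, with 75 of 80 members positive. Rpl23 was at 1695 CPM in WT and 2252 in HFD (0.41), Rpl37 at 1022 and 1356 (0.41), and Rpl7 had a ratio of 0.46 (0.31 to 0.60). Of the 6 members called higher in β-like cells, 5 were called higher in α-like cells and Rps27l was not, with 0.02 (-0.27 to 0.32). The same overlap was not counted over all genes. The highest ratio in α-like cells was 0.66, for Rps28 of the small subunit. The count was 1 at 1.5-fold (2.06% of all genes higher, 8.3% lower), 33 after centring (8.93% and 9.88%), 59 with TMM scaling (17.2% and 6.4%) and 58 with median-of-ratios scaling (16.9% and 6.64%). Both classes come from the same 2 libraries and are not independent of each other.

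In δ-like cells 12 of 77 members (15.6%) were called higher and 0 lower, where 10.2% of 567 genes were called higher and 6.35% lower. Their median was 0.15 beside 0.07 for all genes, and Rps29 (0.39, 0.17 to 0.62), Rpl37 (0.34, 0.10 to 0.58) and Rps12 (0.33, 0.11 to 0.55) were among those called. This count moved with the setting. It was 0 at 1.5-fold (4.76% of all genes higher, 4.41% lower), 3 with 1 called lower after centring (6.53% and 8.47%), 5 with median-of-ratios scaling (8.29% and 7.05%), 5 per all UMIs (8.11% and 7.41%) and 5 without insulin and mitochondrial UMIs (8.11% and 7.05%). It was 5 in cells of at most 10% mitochondrial UMIs (9.38% and 5.03%), 5 with high doublet scores kept (10% and 5.87%) and 7 in cells of at most 15000 UMIs (9.98% and 5.95%). At each of these settings the share of members called higher was below that of all genes, unlike in the main count. The 6 other alternatives called 9 to 13 members higher, beside 2.04% to 12.8% of all genes. The counts are not given here setting by setting, so some may lie at or below the share of all genes. In endothelial-like cells 2 of 81 were called higher, Rps27l and Rpl36, and 1 lower, Rpl27 with -0.51, where 11% of 3314 genes were called higher and 9.69% lower. The endothelial-like median was 0.06, with 0.01 for all genes.

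Macrophage-like cells had 4 of 76 members called higher and 0 lower, with 8.36% of 335 genes called higher and 16.1% lower. Rpl41, Rpl36 and Rpl31 were among the 4. In ductal-like cells 0 of 80 members were called higher and 1 lower, Rpl29 with -0.37, beside 14.5% and 11.7% of 1867 genes, and 30 of 80 ratios were positive. In the main count, the share of members called higher was below that of all genes in each of these non-endocrine classes. This did not hold at every alternative setting. The macrophage-like count ran from 0 to 12, while at most 10.1% of all macrophage-like genes were called higher. A count of 12 is a larger share than that, even out of all members. In endothelial-like and ductal-like cells the counts ran from 0 to 4. They are not given here setting by setting, so some may lie at or above the share of all genes.

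How the β-like difference lay across cells of different depth was described by binning on non-insulin UMIs per cell. Below 2000 UMIs the share was 9.70% in 101 WT cells and 7.92% in 142 HFD cells, a log2 ratio of -0.29 (-0.33 to -0.26), and mitochondrial transcripts took 7.08% and 13.4% there. Between 2000 and 5000 it was 9.05% in 64 cells and 9.38% in 2680 (0.05). From 5000 to 10000 it was 8.32% in 583 and 10.0% in 2339 cells (0.27), and from 10000 to 20000 8.74% in 799 and 10.9% in 523 cells (0.32), with mitochondrial transcripts at 10.7% and 6.66%. The members were thus lower in HFD among the shallowest cells and higher in the bins above, and in both bins for which mitochondrial transcripts are given these ran the other way. Above 20000 UMIs there was 1 HFD cell. In α-like cells the ratio was 0.18 from 5000 to 10000 UMIs (22 and 58 cells). Below that there were 0 WT α-like cells, against 111 HFD cells from 2000 to 5000 UMIs and 4 under 2000. Most HFD α-like cells therefore had no WT cells of like depth beside them. In δ-like cells it was 0.12 in that bin (32 and 7 cells) but -0.09 from 2000 to 5000 (2 and 67 cells, -0.20 to 0.02). Endothelial-like cells were lower in HFD from 5000 to 10000 UMIs, at -0.07 (35 and 44 cells, -0.09 to -0.05), and higher from 2000 to 5000, at 0.07 (65 and 68 cells).

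The β-like cells fell into clusters that the libraries filled unequally. These were made without the ribosomal protein genes, Ins1, Ins2, Gcg, Sst, Ppy and Cck, while Iapp stayed in. Within each of the 5 clusters holding at least 30 cells of both libraries, the share was higher in HFD. It was 9.31% and 9.88% in cluster 0 (363 and 288 cells), 8.49% and 9.0% in cluster 1 (372 and 273), and 8.91% and 9.55% in cluster 6 (596 and 317). Cluster 2 had 9.47% and 10.3% (104 and 460 cells), and cluster 5, led by the metallothioneins Mt1 and Mt2 and by haemoglobin transcripts, 7.63% and 8.73% (168 and 658 cells). The log2 ratios within these clusters were 0.086, 0.085, 0.10, 0.12 and 0.19, of which only that of cluster 5 reached the 0.18 of all β-like cells.

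These 5 clusters held 88.4% of WT and 35.1% of HFD β-like cells, and over their cells the share was 8.87% and 9.55%. Another 3 clusters, in which genes such as Dapl1 and Iapp led, held 50.9% of the HFD but 2.26% of the WT β-like cells (2894 and 41 cells), with shares of 10.2% in HFD and 8.55% in WT. Most HFD β-like cells therefore sat in clusters with few WT cells to compare them with, and whether these clusters are a cell state or a property of the library cannot be told apart.

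**Figure D4:**
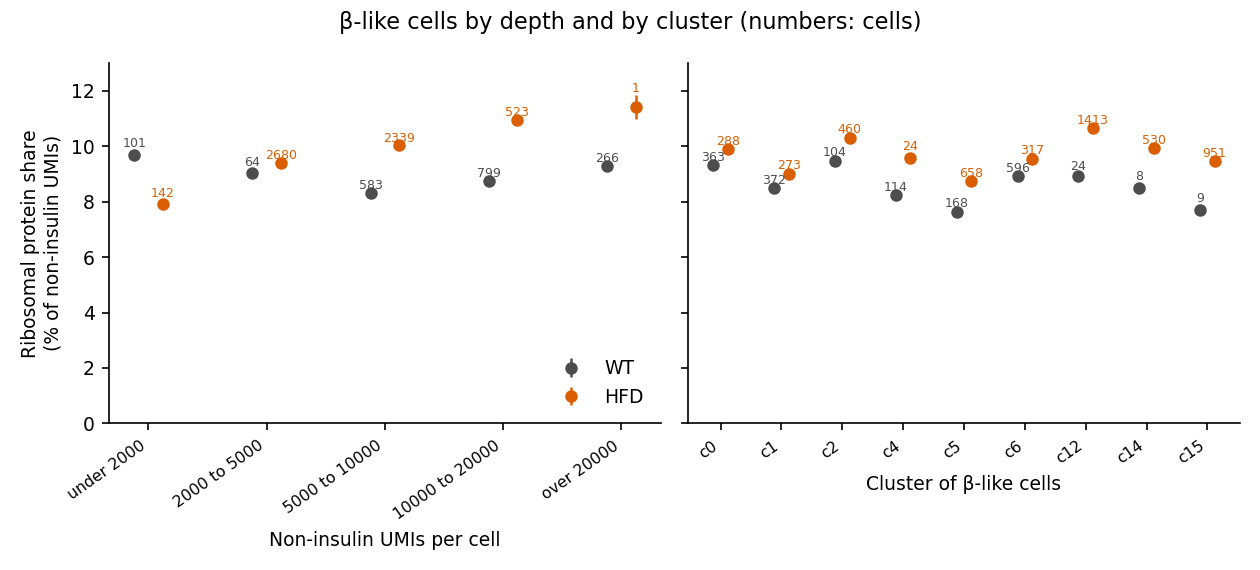
Share of non-insulin UMIs held by the members in β-like cells of WT and HFD, by bins of non-insulin UMIs per cell (left) and by cluster (right), with the numbers of cells beside the points and bars for exact 95% intervals. HFD lay lower below 2000 UMIs (7.92% against 9.70%), higher in the bins above, and higher in each of the 9 clusters shown, 5 of which (0, 1, 2, 5 and 6) hold at least 30 cells of both libraries.

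Within the clusters single members seldom passed the limit. In cluster 0 the called member was Rpl36 (1 higher, 0 lower, with 6.58% and 5.39% of all genes), and in cluster 1 again Rpl36 (1 higher, 0 lower, 6.86% and 6.7%). In cluster 2 there were 2 higher, Rps21 among them, and Rpl27 was called lower (7.8% and 5.3% of all genes), and in cluster 6 Rpl37, Rpl41 and Rps26 higher (6.63% and 5.68%). In cluster 5 there were 11 higher and 0 lower, with 6.28% and 15.8% of all genes. Of 82 members tested in all 5 clusters, 51 had a positive ratio in each, 2 (Rpl9 and Rpl4) a negative one in each, and 29 a mixed sign.

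Over the 5 clusters, which are subsets of the cells that gave the calls, 28 members had all 5 intervals above 0. Neither this count nor that of the signs was made over all genes. It is therefore not known whether they are particular to the members, whose many UMIs give narrow intervals. Rps29 had log2 ratios of 0.24 to 0.36, Rpl37 0.19 to 0.37, and Rpl23 0.19 to 0.36, with all 5 intervals above 0 for each. Rpl7, at 0.11 to 0.32, also had all 5 intervals above 0. Rps27l was positive in all 5, at 0.05 to 0.27, with 2 intervals above 0. In contrast, Rpl9 ran from -0.15 to -0.01 with 4 intervals below 0, and Rpl27 from -0.43 to 0.18 with 3 below 0.

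Finally, the makeup of the family, that is, each member's percentage of all member UMIs, was compared across classes. Over 6 classes and both libraries, 64 members had at least 100 UMIs everywhere, and the log2 range of their percentage had a median of 0.60, from 0.28 to 1.84. For 4 members the range exceeded 1, and in each of them macrophage-like cells were at an end of the range. Of these, 3 are given here. Rpl41 ran from 0.83% of member UMIs in macrophage-like cells of WT to 2.98% in β-like cells of HFD. Rpl39, which lines the exit tunnel of the large subunit, ran from 0.53% in α-like cells of WT to 1.37% in macrophage-like cells of HFD, and Rps26, at the messenger RNA exit, from 0.39% in endothelial-like to 0.83% in macrophage-like cells, both of HFD.

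Just under a range of 1 were 4 further members. The stalk gene Rplp1 (0.99) ran from 1.31% in δ-like to 2.61% in macrophage-like cells of WT, and Rps29 (0.97) from 0.98% in ductal-like to 1.92% in macrophage-like cells of HFD. Rpl9 (0.98) and Rpl5 (0.95) ran the other way, with their lowest percentages in macrophage-like cells of HFD (1.06% and 0.64%) and their highest in δ-like cells of WT (2.09%) and α-like cells of WT (1.24%). The ratio of large-subunit to small-subunit UMIs was 1.38 and 1.37 in β-like cells of WT and HFD, 1.30 in α-like and 1.19 in macrophage-like cells of both, and 1.13 in T-like cells.

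**Figure D5:**
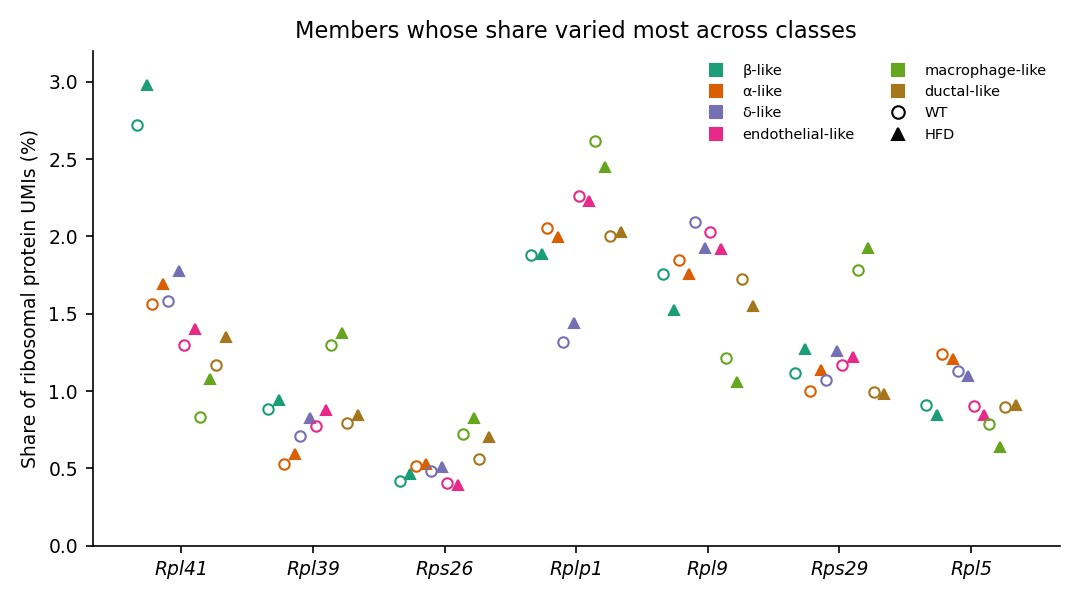
Percentage of all member UMIs (y axis) taken by 7 of the members whose percentage varied most (x axis), coloured by 6 cell classes, with circles for WT and triangles for HFD. Rpl41 ran from 0.83% in macrophage-like cells of WT to 2.98% in β-like cells of HFD, and Rpl39 from 0.53% in α-like cells of WT to 1.37% in macrophage-like cells of HFD.

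T-like cells differed in makeup from the β-like cells of the same library. Rpl41 took 1.0% of member UMIs against 2.98%, Rps27l 0.03% against 0.42%, Rpl22l1 0.33% against 0.72%, and Rpl36al 0.03% against 0.19%. Rps26 took 0.76% against 0.46%, and Rplp1 2.47% against 1.88%. In CPM, 4 of the named members were below their β-like level despite the high total of these cells. Rps27l was at 140 CPM (101 to 189) against 419, Rpl36al at 143 (104 to 192) against 188, and Rpl7l1 at 35.8 (17.9 to 64.1) against 66.4, and the upper bound for Rpl36al reached above the β-like level. Rps19bp1 was at 45.6 CPM (24.9 to 76.5) against 49.5, which its interval holds. The paralog Rpl22l1 was above its β-like level, at 1384 CPM against 717.

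Between WT and HFD the makeup within a class was read as a single deviation per member. It cannot be set against the range over 6 classes and both libraries, which is a wider measure by construction. Relative to the ratio of the whole family, 49 of 83 members lay within 0.1 on the log2 scale in β-like cells, 81 within 0.25 and 0 past 0.5, with a standard deviation over members of 0.12. In α-like cells 37 of 80 lay within 0.1 and 75 within 0.25, and in endothelial-like cells 58 and 77 of 81. The members past 0.5 in any of the 6 classes were Rpl31 in δ-like and Rpl27 in endothelial-like cells.

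The genes that serve the ribosome were then read on the same scale in β-like cells, where these calls have the background of 4.34% higher and 22.2% lower. Of 46 translation factors tested of 47 listed, 1 was called higher and 1 lower, with a median log2 ratio of 0.00. These were Eif4ebp1, the mTOR-regulated repressor of cap binding, at 101 CPM in WT and 134 in HFD (0.40), and Pabpc1, the poly(A)-binding protein, at 227 and 173 (-0.40). Eef1b2, a subunit of the elongation factor exchange complex, was at 553 and 678 (0.30) and was not called. Of 35 ribosome biogenesis genes tested of 36 listed, 1 was called higher and 7 lower, with a median of -0.05. Nop10, a protein of the pseudouridylation complex, was at 177 and 225 CPM (0.35), whereas Dkc1, the enzyme of the same complex, was at 23.6 and 15.9 (-0.57), and Ubtf, a transcription factor of RNA polymerase I, at 84.7 and 60.9 (-0.48).

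Of 14 genes of the TOR pathway 0 were called higher and 4 lower, with a median of -0.19. Tsc1 and Ddit4, both inhibitors of mTOR complex 1, had ratios of -0.43 and -0.49, and Rheb, its activator, 0.22. Of 77 mitochondrial ribosomal protein genes tested of 78 listed, 0 were called higher and 3 lower, with a median of -0.01, among them Mrps28 at 81.2 and 47.5 CPM (-0.77) and Mrps31 with -0.45. The medians of these 4 lists ran from -0.19 to 0.00, beside 0.17 for the cytosolic members and -0.14 for all genes.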

How the data were processed

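Islet cells of 1 WT and 1 HFD library were analysed from the deposited filtered count matrices, in which the authors give whole UMI counts per gene and barcode, not normalised. The submitters' processing notes name Cell Ranger 3.0.2 and build mm10. Barcodes with at least 500 genes and at most 20% mitochondrial UMIs were kept (2600 WT and 7297 HFD), and the maximum of 15000 UMIs in the study's methods was an alternative. Scrublet's automatic threshold called 1 WT and 0 HFD doublets, so the highest-scoring barcodes were left out instead. These were 121 of all 3895 WT and 641 of all 8951 HFD barcodes, ranked before the filters. Some of them failed the filters too, and 2493 WT and 6673 HFD cells were kept. The libraries shared 9 barcode sequences, 3 after filters. Cells were clustered without the ribosomal protein genes, Ins1, Ins2, Gcg, Sst, Ppy and Cck (scanpy 1.11.5, Leiden with igraph 0.11.9) and named from marker lists. Iapp and Pyy were not removed. How markers were scored was set after clusters were seen. UMIs were summed per class and library, with classes under 30 cells per library left out of gene ratios. Clopper-Pearson and exact conditional intervals came from scipy 1.17.1, and edgeR 4.0.16 gave the scaling alternatives. The calling script was tested on simulated data. Named genes were the 8 members with the highest and the 8 with the lowest β-like ratio (at least 500 UMIs per library), the 5 with most UMIs, the 8 with the widest range of makeup, those nearest the minimum of 50, and the stalk, 5S, fusion and variant genes, with the 2 highest and 2 lowest genes of each other list. Some genes that this rule names are not reported here. The members and lists were chosen with earlier results of these data known. Rps28, Rps21, Rpl36, Rpl31, Rpl29, Rpl4 and Myc were named after their values were seen. Coordinates are from GENCODE vM21 (GRCm38) and RefSeq. WT held 73843674 UMIs and HFD 94375138. Processed copies named "-ps" took 0.0377% of member UMIs.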

Additional observations from a re-analysis of the deposited data

Results flagged for a closer look

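The ductal-like cells had a lower share of non-insulin UMIs from ribosomal protein genes in HFD than in WT, with a log2 ratio of -0.035, while the β-like cells had a higher one, 0.18. Among the named classes with at least 30 cells in both libraries they were alone in that direction, and some smaller classes, such as the acinar-like cells (10 and 4 cells), were lower in HFD too. The difference between the classes was not tested, since each group has 1 library, and the ductal-like sign turned positive under TMM and median-of-ratios scaling.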

How the results depend on the processing

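No paired analysis was possible because each group holds 1 library and the labels carry no replicate numbers. The β-like log2 ratio of the share, 0.18, was 0.33 after centring on the median gene, 0.34 with TMM and 0.34 with median-of-ratios scaling, 0.32 per all UMIs, 0.15 without insulin and mitochondrial UMIs, 0.16 in cells up to 15000 UMIs, 0.19 with high doublet scores kept, 0.26 in cells of 5000 to 20000 UMIs, 0.25 without islet hormones, and 0.086, 0.085, 0.12, 0.19 and 0.10 within clusters 0, 1, 2, 5 and 6. The last 2 kinds were chosen after seeing the data. The 6 β-like members called higher became 0 at 1.5-fold, 39 centred, 42 with TMM (background 10.2%), 44 with median-of-ratios scaling, 39 per all UMIs, 14 up to 15000 UMIs (with 2 called lower), 26 at 5000 to 20000 UMIs and 19 without islet hormones. The macrophage-like ratio reversed to -0.067 with TMM and -0.071 with median-of-ratios scaling, and the ductal-like ratio to 0.033, 0.034 and, at 5000 to 20000 UMIs, 0.0055. The cause of these changes was not tested. The α-like ratio was positive in 13 of 13 alternatives (0.21 to 0.43), the δ-like in 11 of 11 (0.09 to 0.19) and the endothelial-like in 13 of 13 (0.0064 to 0.12). No value could be had for δ-like cells at a cluster resolution of 0.5, for macrophage-like cells with at least 1000 genes per cell, or for either at 5000 to 20000 UMIs, where a library held under 30 cells. Depth limits the smaller classes, where only 335 genes reached 100 UMIs in macrophage-like cells.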

Other observations

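A cluster of 76 WT and 0 HFD cells that could not be named stood at the low end of the family. Its members' share of non-insulin UMIs was 0.763% (0.707 to 0.822), from 687 UMIs. The nuclear transcript Malat1 alone took 17.5% and the list of 5 nuclear or damage-associated transcripts 19.5%, mitochondrial transcripts took 6.59%, and insulin 7.51% of all UMIs.

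A small unnamed cluster of 11 WT and 3 HFD cells, in which the transcription factor gene Gata3 and the cytokine genes Il5, Il13 and Areg led, had shares of 33.8% and 34.7%. The B-like cells of WT (5 cells) were at 32.5%, and those of HFD at 16.6% over 7 cells, 4 of which were led by the immunoglobulin genes Jchain and Igha. A cluster of 8 HFD cells led by Ccr7, Il12b and Fscn1 was at 17.3%.

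In β-like cells Myc, a transcription factor known to drive ribosome production, was at 3.77 CPM in WT and 1.59 in HFD, a log2 ratio of -1.25. Of the nuclear and damage-associated transcripts, Gm42418, which overlaps ribosomal RNA, was at 2718 and 1266 CPM (-1.10) and AY036118 at 91.3 and 40.1 (-1.19), while Malat1 was at 9774 and 10673 (0.13). For this list the 3 called genes were lower in HFD, while the ribosomal protein genes had their median at 0.17.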
